A study of Mus musculus with 33 samples.

Results

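The enzymes that write, copy and remove DNA methylation were examined in mouse cells with Uhrf1 (wild type, WT) and without it (knockout, KO). The 10 genes, chosen by name, were Uhrf1 and Uhrf2, the DNA methyltransferase genes Dnmt1, Dnmt3a, Dnmt3b and Dnmt3l, the dioxygenase genes Tet1, Tet2 and Tet3, and Tdg, out of 22367 protein-coding genes of the mm9 annotation. ChIP-seq, in which DNA carrying a histone mark or bound by a protein is recovered with an antibody and sequenced, had been done in E14 embryonic stem cells (mESC) and Uhrf1 KO mESC, and in embryoid bodies (EBs) of both genotypes at weeks 1, 2 and 3. EBs are aggregates, started in hanging drops, in which stem cells differentiate into mixed cell types. H3K4me3 and H3K27me3 were mapped at all 4 stages in both genotypes, and H3K9me3, Oct4, Sox2 and Nanog in mESC of both genotypes. Uhrf1 itself was mapped in WT mESC. The E14 cells and the KO cells were both received from the same outside laboratory. The KO cells were 1 line, so line and genotype cannot be told apart. The lists do not show which part of Uhrf1 was deleted.

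Uhrf1 binds hemimethylated CpG behind the replication fork and recruits Dnmt1, which copies the methyl group onto the new strand. Dnmt3a and Dnmt3b place methyl groups on unmethylated DNA, with Dnmt3l as a cofactor that has no catalytic activity of its own. Tet enzymes oxidise 5-methylcytosine, and Tdg, a DNA glycosylase, removes the oxidised bases so that repair can restore cytosine. In pluripotent cells Oct4, Sox2 and Nanog often bind near genes of the stem cell programme, H3K4me3 marks promoters that are active or poised, and H3K27me3 and H3K9me3 mark repressed chromatin.

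Each group held 1 library, so differences between WT and KO have no replicate error behind them, and none was tested. A gene was counted as marked when a deposited domain lay within 2 kb (H3K4me3) or 5 kb (H3K27me3, H3K9me3) of its start, the 5′ end of its annotated record. For factors, a summit had to lie within 20 kb of the gene body, and for Uhrf1 a deposited 10 kb window had to overlap the gene. The number of the 10 genes in a list is therefore set beside the share of all 22367 genes in that list, given as a percentage. The lists differed in size: H3K4me3 lists held 11509 to 39898 domains, H3K27me3 lists 722 (KO mESC) to 9488, and the Oct4 list 12898 summits in WT and 576 in KO, whereas Sox2 and Nanog lists were longer in KO. Of 10 pluripotency markers, H3K4me3 was at the start of 9 in WT and 8 in KO mESC, and Esrrb was unmarked at its annotated start in all 8 lists. At week 1 these numbers were 5 and 2, and at week 3 9 and 9. Cardiac and mesoderm markers with H3K4me3 numbered 4 and 2 of 10 in WT and KO mESC, and 9 and 9 at week 1. Neuroectoderm markers numbered 5 and 4 of 5 in mESC, and 5 and 2 at week 1, where KO lacked Pax6, Tubb3 and Neurod1. They numbered 5 and 5 at weeks 2 and 3. Sox1, chosen as a further neuroectoderm marker, was not found in the annotation. Endoderm markers numbered 3 and 2 of 6 in mESC, and 4 and 5 at week 1. Markers of feeder fibroblasts with H3K4me3 numbered 5 and 4 of 8 in mESC and 8 and 8 at weeks 2 and 3. The part of such mixed cells in the EB results, among them those of Dnmt3a and Dnmt3l at week 1, was not tested.

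**Figure D1:**
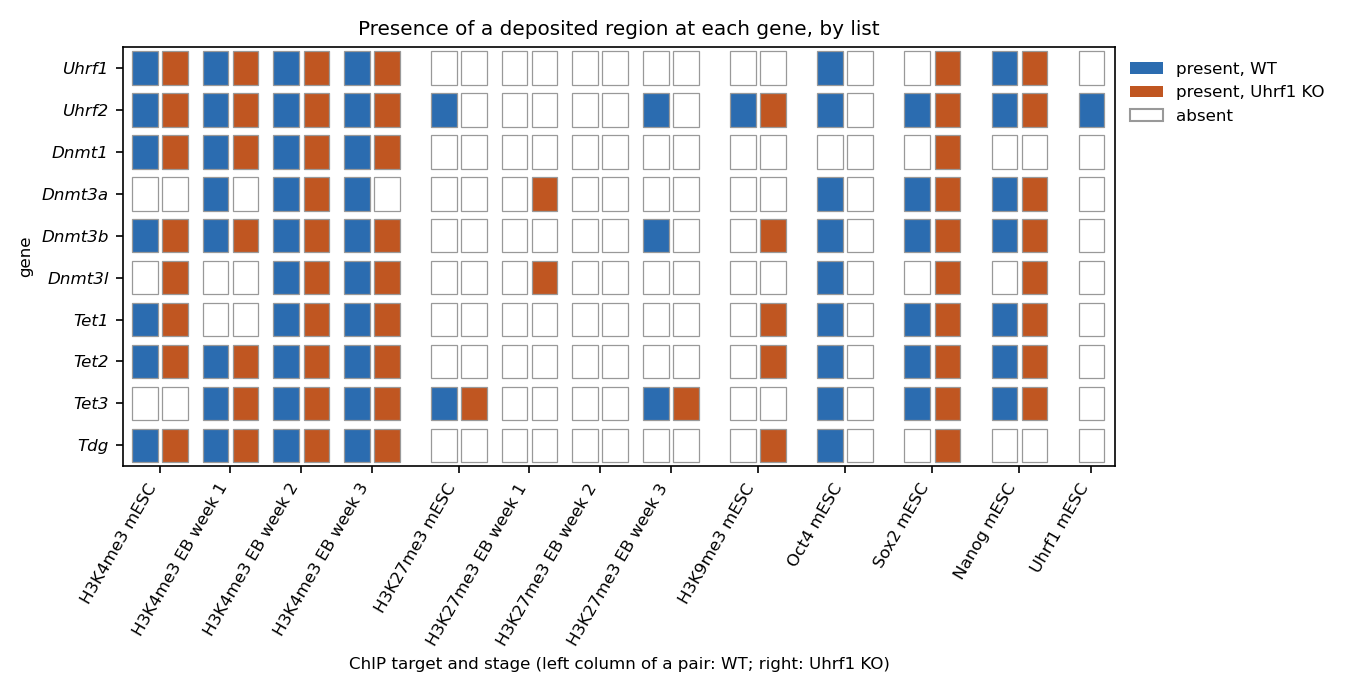
Presence of a deposited region at each of the 10 genes (rows) in each list (columns, grouped by ChIP target and stage). Filled squares mark a region in WT (blue) or Uhrf1 KO (orange), open squares its absence. Oct4 fills 9 WT squares and 0 KO squares, and H3K4me3 fills all 8 squares of 6 genes.

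Most of these enzyme genes carried H3K4me3 at their start in every list. In mESC it was at 7 of 10 genes in WT (all genes, 63.2%) and at 8 in KO (57%). The numbers were 8 in WT (62.1%) and 7 in KO (57%) at week 1, 10 in WT (65.7%) and 10 in KO (64.5%) at week 2, and 10 in WT (66.2%) and 9 in KO (65.8%) at week 3. Uhrf1, Uhrf2, Dnmt1, Dnmt3b, Tet2 and Tdg were marked in all 8 lists, 6 of 10 genes where 50.3% of all genes were. The remaining genes were Dnmt3a, Dnmt3l, Tet1 and Tet3, each unmarked in some lists.

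H3K27me3 was at fewer of these genes. Uhrf2 and Tet3 carried it in WT mESC (2 genes, all genes 34.9%) and Tet3 alone in KO mESC (7.57%). No gene of the 10 carried it in WT at week 1 (20.5%), in WT at week 2 (29.8%) or in KO at week 2 (24.1%), whereas Dnmt3a and Dnmt3l did in KO at week 1 (21.1%). At week 3 it was at Uhrf2, Dnmt3b and Tet3 in WT (33.2%) and at Tet3 in KO (19.5%). All 4 of these week 3 domains lay 2.33 to 4.13 kb before the start, and with the start itself or 2 kb as the window none of the 10 genes had H3K27me3 at week 3. The shares of all genes were then 27% and 30% in WT, and 17.1% and 18.3% in KO.

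H3K9me3 was at Uhrf2 alone in WT mESC (29.7% of all genes) and at Uhrf2, Dnmt3b, Tet1, Tet2 and Tdg in KO mESC (40.1%). Dnmt3b, Tet1, Tet2 and Tdg were thus marked in KO only, as were 17.9% of all genes. The KO list held fewer and longer domains, 3118 with a median length of 140.4 kb, against 11285 with a median of 37.8 kb in WT. The KO domain at Dnmt3b measured 148 kb, that at Tet1 313 kb and that at Tet2 2269.8 kb. The domain near Tdg, 630 kb long, ended 1.77 kb before the gene start.

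**Figure D2:**
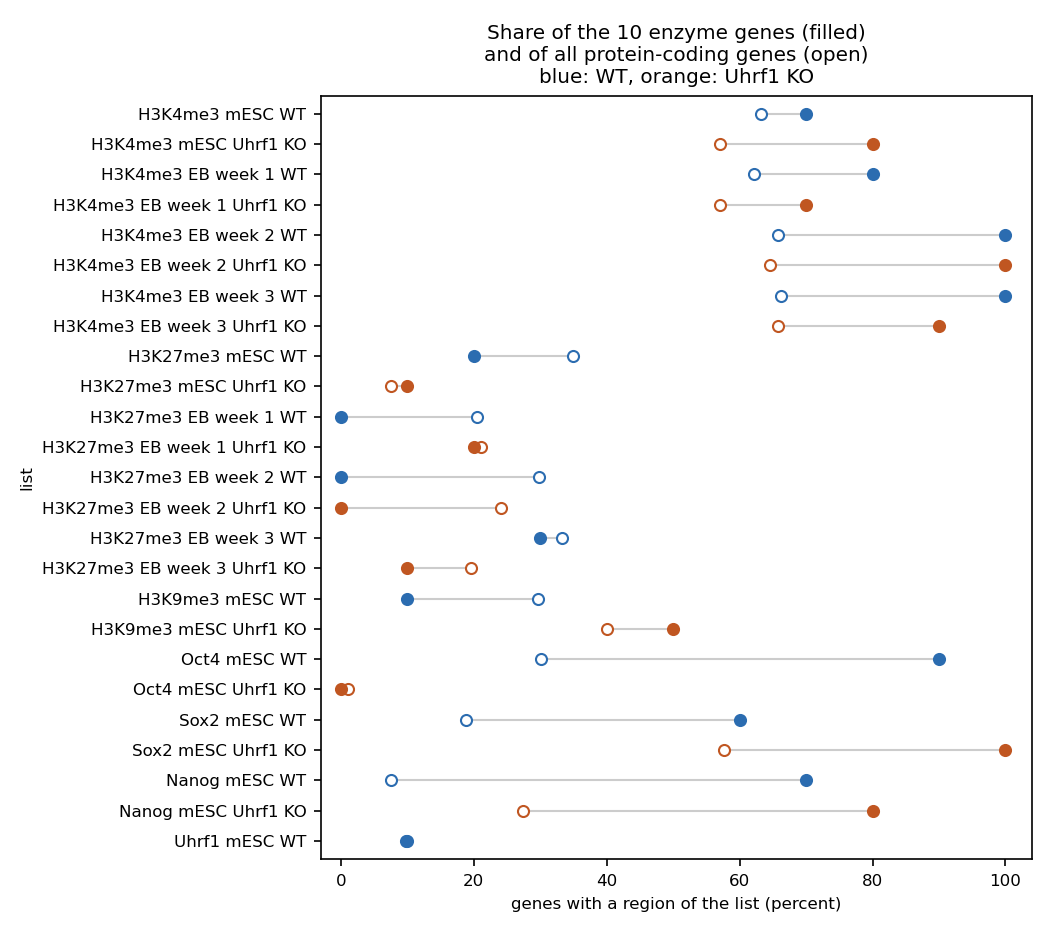
Percentage of genes with a region in each of the 25 lists (rows): the 10 enzyme genes as filled points and all protein-coding genes as open points, WT in blue and Uhrf1 KO in orange. For WT Nanog 7 of 10 enzyme genes had a summit where 7.51% of all genes did, and for WT H3K9me3 1 of 10 where 29.7% did.

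Of the maintenance genes, Uhrf1 (chr17:56442744-56462909, plus strand) had an H3K4me3 domain over its start at every stage in both genotypes. The domain ran 5.86 kb into the gene in WT mESC and 1.96 kb in KO mESC. Corresponding distances were 5.66 and 1.76 kb at week 1, 5.66 and 3.86 kb at week 2, and 8.06 and 6.06 kb at week 3, so the end inside the gene was nearer the start in KO at all 4 stages. Tdg was the other such gene, which gives 2 of the 6 genes marked in all 8 lists where 8.6% of the 11257 genes so marked had this order. Bins differed in length between WT and KO lists of weeks 1 and 2, and the part of the bin in these ends was not tested. Upstream, the WT mESC domain extended 70.8 kb before the Uhrf1 start, over neighbouring genes, and the KO domain 14.9 kb.

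Uhrf2 (chr19:30105003-30168212, plus strand), a relative of Uhrf1 that also binds methylated DNA and histones, had a region in 18 of the 25 lists, more than any other of the 10 genes. In WT mESC it had H3K4me3 together with H3K27me3, a combination called bivalent, and in KO mESC H3K4me3 only, which is the active class. The WT H3K27me3 domain was 79.2 kb long and covered the start. H3K27me3 in WT only was also found at 29.5% of all genes in mESC, so the state of Uhrf2 is shared with many genes. At weeks 1 and 2 Uhrf2 was active in both genotypes, and at week 3 it was bivalent in WT and active in KO. H3K9me3 covered its start in both genotypes, with a domain of 34.2 kb in WT and 427 kb in KO. It was also the 1 gene of the 10 with a Uhrf1 window (all genes, 9.84%), at chr19:30100001-30110000, which spans the start. The nearest window to Tet2 lay 6.64 kb from the gene, and the nearest to the other 8 genes 177 to 852 kb away.

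Dnmt1 (chr9:20711650-20757317, minus strand), the maintenance methyltransferase, had a region in 9 of the 25 lists. H3K4me3 covered its start in all 8 lists and no H3K27me3 or H3K9me3 domain came within 5 kb. The H3K4me3 domain ended 8.02 kb into the gene in WT mESC and 10.6 kb in KO mESC. These ends were at 5.32 and 3.72 kb at week 1, 8.52 and 8.97 kb at week 2, and 10.1 and 8.92 kb at week 3, so the end was nearer the start in KO at weeks 1 and 3 and farther from it in mESC and at week 2. The domain was 6.4 and 4.55 kb long at week 1, 10.8 and 9.8 kb at week 2, and 12 and 11.6 kb at week 3 in WT and KO.

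Dnmt3a (chr12:3806007-3914443, plus strand), a de novo methyltransferase, has 18 annotated transcript starts. Its gene start had neither mark in WT or KO mESC. At week 1 it was active in WT and repressive, with H3K27me3 only, in KO. It was active in both genotypes at week 2, and at week 3 active in WT and unmarked in KO. H3K4me3 in WT only was found at 6.23% of all genes at week 1 and at 2.47% at week 3, and H3K27me3 in KO only at 6.29% at week 1. The WT domains over the start were short, 1.6 kb at week 1 and 0.8 kb at week 3. At both weeks a further WT domain, 3.6 kb long, began 1.99 kb after the start. With 5 kb in place of 2 kb the week 3 difference was gone. The nearest KO domain at week 3 lay 2.39 kb from the start, just outside the 2 kb limit. At week 2 the WT domain began 1.99 kb after the start, just inside the 2 kb limit, and the KO domain was 0.35 kb long and ended 0.107 kb before it. The KO H3K27me3 domain at week 1 was 14.4 kb long and reached 0.993 kb into the gene.

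An internal start of Dnmt3a carried H3K4me3 throughout. The annotated start of transcripts Dnmt3a-005 and Dnmt3a-201, 85.7 kb into the gene, lay in an H3K4me3 domain in all 8 lists. That domain was 20.8 kb long in WT mESC and 9.1 kb in KO mESC. Its length was 6.4 kb in WT and 7 kb in KO at week 1, 8 and 10.8 kb at week 2, and 12.8 and 11.6 kb at week 3. At the start of Dnmt3a-001, 1.02 kb after the gene start, no H3K4me3 domain came within 500 bp in any of the 8 lists. In 5 of them, WT at weeks 1 to 3 and KO at weeks 2 and 3, a domain lay 0.63 to 1.37 kb away, within the 2 kb limit used for gene starts. With any transcript start counted, 0 of the 10 genes differed in H3K4me3 between WT and KO at weeks 1 and 3. Of all genes, 6.13% and 2.38% then had it in WT only at these weeks, and 1.16% and 1.96% in KO only.
To show how these 3 starts differ in sequence, the 250 bases before each are given, 5′ to 3′ on the plus strand of mm9 with every CpG in capitals.
Dnmt3a gene start (chr12:3805757-3806006): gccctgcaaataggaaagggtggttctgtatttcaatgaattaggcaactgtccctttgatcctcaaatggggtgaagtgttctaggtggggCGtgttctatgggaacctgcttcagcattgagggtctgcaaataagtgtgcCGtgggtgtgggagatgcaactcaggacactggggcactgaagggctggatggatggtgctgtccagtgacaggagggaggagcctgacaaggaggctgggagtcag
Dnmt3a-001 start (chr12:3806780-3807029): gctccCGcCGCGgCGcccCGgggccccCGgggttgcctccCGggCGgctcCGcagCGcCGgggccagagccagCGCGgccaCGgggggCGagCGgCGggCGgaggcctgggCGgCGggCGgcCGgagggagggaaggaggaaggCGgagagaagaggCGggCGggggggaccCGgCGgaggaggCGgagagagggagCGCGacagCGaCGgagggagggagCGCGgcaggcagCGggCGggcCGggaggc
Dnmt3a-005 start (chr12:3891478-3891727): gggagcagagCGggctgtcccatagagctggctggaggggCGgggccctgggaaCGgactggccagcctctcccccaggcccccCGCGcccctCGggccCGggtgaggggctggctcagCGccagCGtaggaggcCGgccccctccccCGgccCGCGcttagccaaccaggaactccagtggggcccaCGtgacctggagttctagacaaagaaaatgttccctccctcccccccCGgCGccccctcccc
They hold 2, 37 and 16 CpGs, the most being before Dnmt3a-001. A domain lay within 500 bp of these starts in 3, 0 and 8 of the 8 lists, and within 2 kb in 4, 5 and 8.

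Dnmt3b (chr2:153475186-153513466, plus strand), the other de novo enzyme, was active in both genotypes in mESC and at weeks 1 and 2. At week 3 it was bivalent in WT, through an H3K27me3 domain that ended 3.59 kb before the start, and active in KO. H3K27me3 in WT only was found at 16.6% of all genes at that stage. Its H3K4me3 domain was longest in mESC and at week 3: 32.5 kb in WT and 26 kb in KO mESC, 6.4 and 3.5 kb at week 1, 7.2 and 5.6 kb at week 2, and 13.6 and 22.8 kb at week 3. The KO domain was the shorter at 3 stages and the longer at week 3.

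Dnmt3l (chr10:77504692-77526367, plus strand), the cofactor, had no H3K4me3 over its gene start in any list. In KO mESC a domain of 13 kb began 1.31 kb after the start, so the gene counts as marked in KO only, as did 1.38% of all genes. In WT mESC the domain was 3.9 kb long and lay at an internal start 7.89 kb into the gene, that of Dnmt3l-002 and Dnmt3l-003. That internal start lay in the KO domain as well, and with any transcript start counted Dnmt3l did not differ between WT and KO mESC. At week 1 no H3K4me3 domain lay at either start in either genotype, and in KO an H3K27me3 domain of 19.8 kb covered both. At week 2 the domain within 2 kb of the gene start was 0.8 kb long in WT and 10.2 kb in KO, and at week 3 1.2 and 1.6 kb. Dnmt3l overlaps a neighbour, Aire, which had the same presence and absence in all 25 lists. Both lie at the same locus, so their regions are shared.

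Among the Tet genes, Tet2 (chr3:133126643-133207354, minus strand) was active in all 8 pairs of H3K4me3 and H3K27me3 lists. Its H3K4me3 domain was 49.4 kb in WT and 44.2 kb in KO mESC, 6 and 9.1 kb at week 1, 34.4 and 20.3 kb at week 2, and 9.2 and 49.6 kb at week 3. Neither genotype had the longer domain at all stages.

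Tet1 (chr10:62267318-62361866, minus strand), an enzyme well known from embryonic stem cells, had H3K4me3 at its start in 6 of the 8 lists. Its domains were among the longest of those 6 lists. They measured 70.2 kb in WT and 79.3 kb in KO mESC, at percentiles 98.4 and 98.6 of length within their lists. At week 1 the start had neither H3K4me3 nor H3K27me3 in either genotype. The mark was again present at week 2, with domains of 16.4 kb in WT and 26.6 kb in KO, and at week 3, with 41.6 and 53.2 kb. The end inside the gene lay farther from the start in KO at the 3 stages with a domain. The distance was 18.2 kb in mESC, 9.45 kb at week 2 and 5.2 kb at week 3. Of all genes marked in both genotypes, 43.4% in mESC, 62.5% at week 2 and 42.3% at week 3 had the end nearer in KO. No share of all genes is given for an end farther in KO at these 3 stages.

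Tet3 (chr6:83312367-83391672, minus strand) differed from Tet1 in mESC and at week 1, and like Tet1 had H3K4me3 at weeks 2 and 3. Its start had H3K27me3 without H3K4me3, the repressive class, in WT and KO mESC. In EBs of both genotypes it was active at weeks 1 and 2 and bivalent at week 3. The mESC H3K27me3 domain was 86.4 kb long in WT and 475.5 kb in KO, where the KO list has a median mean count of 0.914 reads per bin against 4.93 in WT and its bins are shorter. H3K4me3 domains at Tet3 measured 22 kb in WT and 4.2 kb in KO at week 1, 34.4 and 24.5 kb at week 2, and 21.6 and 11.2 kb at week 3. The KO domain was the shorter at all 3 stages, and no share of all genes is given for this order. The median length of all H3K4me3 domains was 4.8 kb in WT and 3.15 kb in KO at week 1. It was 2.8 kb in both at week 2, and 3.8 and 3.6 kb at week 3.

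Tdg (chr10:82092573-82113544, plus strand) was active in every pair of lists. Its H3K4me3 domain was shorter in KO at all 4 stages, the 1 gene of the 6 marked in all 8 lists with this order. The lengths were 15.6 kb in WT and 11.7 kb in KO mESC, 15.2 and 3.85 kb at week 1, 13.6 and 4.2 kb at week 2, and 17.6 and 15.6 kb at week 3. Of all 11257 genes marked in 8 lists, 12.9% had a domain shorter in KO at all 4 stages.

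**Figure D3:**
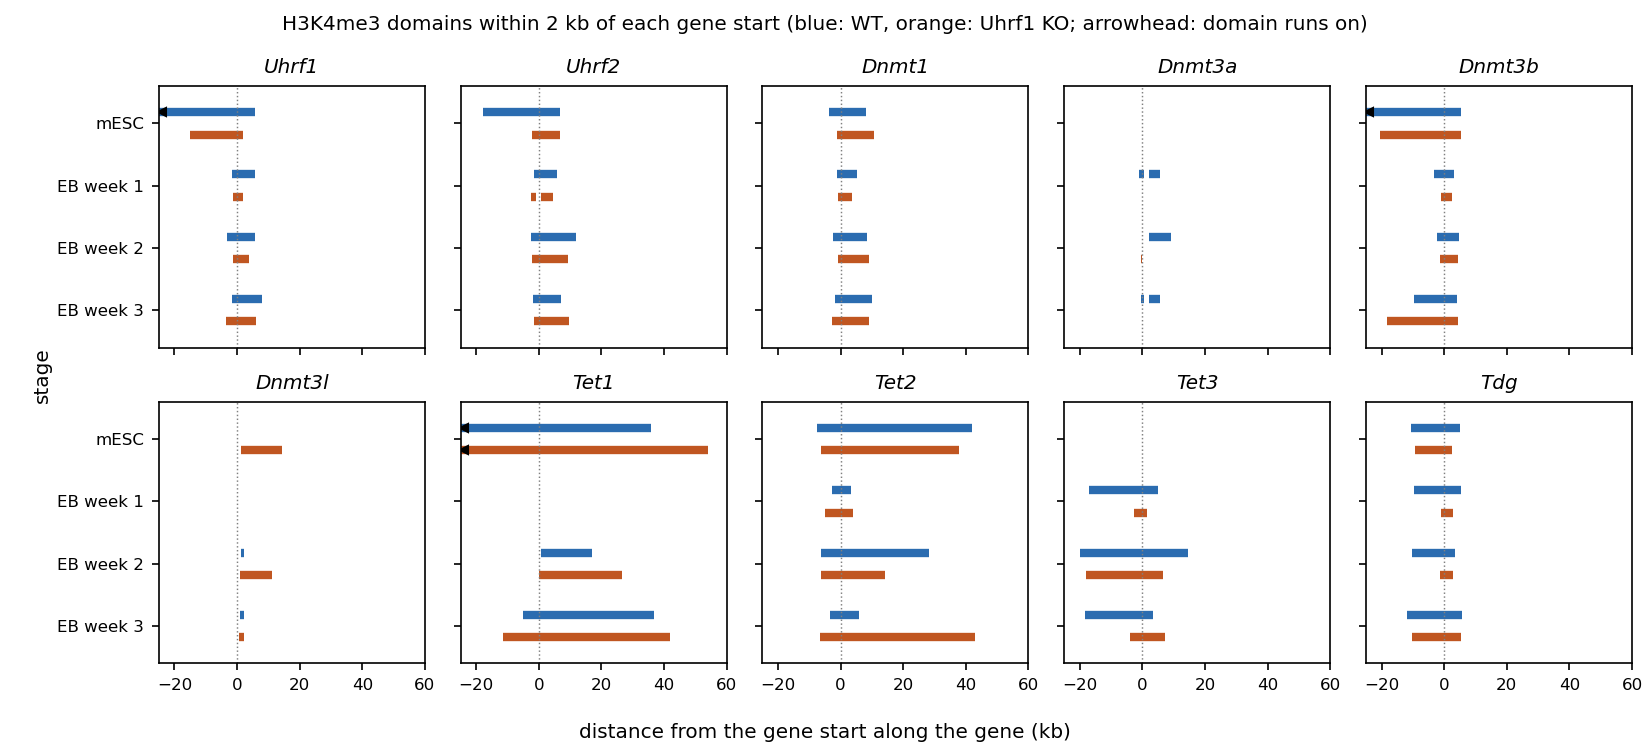
H3K4me3 domains within 2 kb of the start of each gene, drawn by distance along the gene in kb from the gene start (dotted line), 1 panel per gene and 1 row per stage, WT in blue and Uhrf1 KO in orange. Arrowheads mark domains that run past the left edge. The domains of Uhrf1 and Tdg end nearer the start in KO in each row, and those of Tet1 are absent at week 1.

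CpG content was counted within 500 bp of each gene start, since CpG-rich starts often carry H3K4me3. The median over all genes was 41 CpGs, with 65 for the genes marked in all 8 lists, 25 for those marked in 1 to 7 lists and 8 for those marked in none. Uhrf2 had 122, Tet2 105, Dnmt3b 102 and Tdg 90, all above the upper quartile of all genes, 69. Dnmt1 had 54 and Uhrf1 45. Among the genes not marked in every list, Tet3 had 56, Dnmt3a 35, Dnmt3l 16 and Tet1 14. The Tet1 gene start, under H3K4me3 domains of up to 79.3 kb, thus had fewer CpGs than those of the other 9 genes. In mESC of both genotypes these domains also covered other starts of Tet1. They were a coding start 19.1 kb into the gene, with 32 CpGs, and a noncoding start at 33.8 kb.

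**Figure D4:**
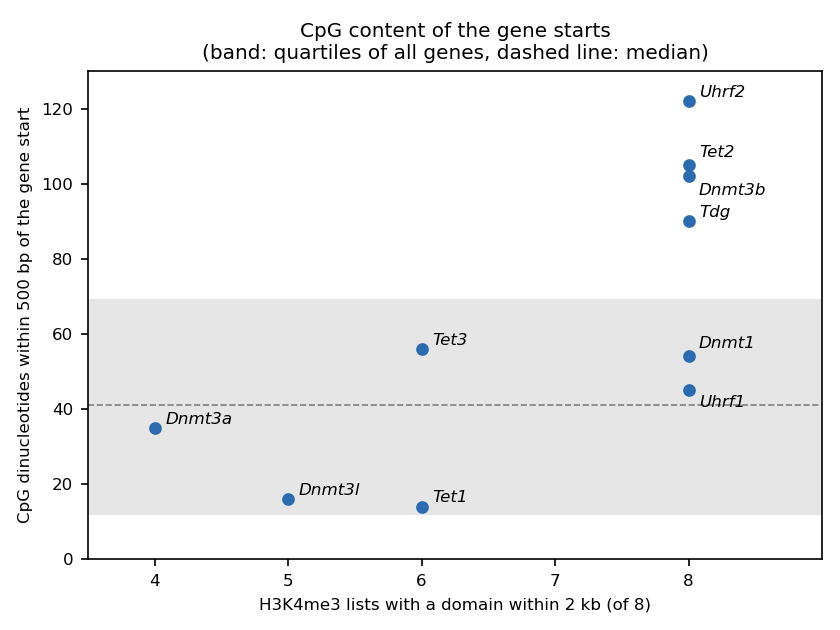
CpG dinucleotides within 500 bp of the gene start (y axis) against the number of the 8 H3K4me3 lists with a domain within 2 kb (x axis), 1 point per gene. The grey band spans the quartiles of all genes and the dashed line is their median, 41. The 6 genes marked in all 8 lists have 45 to 122 CpGs and the other 4 have 14 to 56.

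The pluripotency factors had summits near most of these genes in WT mESC. Oct4 summits lay within 20 kb of 9 of the 10 genes, Dnmt1 being the exception, where 30.1% of all genes had one. In KO mESC 0 of the 10 had an Oct4 summit (1.1% of all genes). All 9 were therefore bound in WT only, as were 29.1% of all genes. Among the 576 tallest WT Oct4 summits, the length of the KO list, 2 of the 10, Uhrf2 and Tet3, had a summit (2.24% of all genes). Sox2 summits were near 6 genes in WT (18.8%) and near all 10 in KO (57.7%). Those with Sox2 in KO only were Uhrf1, Dnmt1, Dnmt3l and Tdg (39.7%). Nanog summits were near 7 genes in WT (7.51%) and 8 in KO (27.4%), with Dnmt3l in KO only (20.1%). These differences also depended on the length of the lists. With only as many of the tallest KO summits as the WT list held, Sox2 was near 8 genes in KO (17.8%), and 2, Uhrf1 and Dnmt3l, had it in KO only (6.59%). Nanog was then near 5 genes in KO (8.48%), with 0 in KO only (3.08%) and 2, Uhrf1 and Dnmt3a, in WT only (2.12%), so that the order of WT and KO turned. The genes have a median length of 54.4 kb, against 15.4 kb for all genes, and a longer gene offers a wider window. The part of gene length in these counts was not tested.

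In all, 52 sites were found by joining summits within 100 bp of each other, and the position of a site is the mean of its summits. WT Oct4 was at 20 of them: 5 at Tet1, 4 at Tet2, 3 at Dnmt3a, 3 at Dnmt3b and 1 each at Uhrf1, Uhrf2, Dnmt3l, Tet3 and Tdg. Of these 20 sites, 17 lay in a WT H3K4me3 domain and 1, at Uhrf2, in a Uhrf1 window. No share of all WT Oct4 sites is given for either count, so neither is read as particular to these genes. The tallest Oct4 site of each gene is shown as the 201 bases centred on the Oct4 summit, 5′ to 3′ on the plus strand of mm9, for the 8 tallest. Capitals mark matches, on either strand, to the octamer ATGCAAAT, the Oct4-Sox2 core TTGTNATGC, the Sox motifs CATTGT and ACAAAG or the homeobox motif CCATTA. The octamer and the Oct4-Sox2 core can overlap each other.
Uhrf2 (chr19:30103506-30103706): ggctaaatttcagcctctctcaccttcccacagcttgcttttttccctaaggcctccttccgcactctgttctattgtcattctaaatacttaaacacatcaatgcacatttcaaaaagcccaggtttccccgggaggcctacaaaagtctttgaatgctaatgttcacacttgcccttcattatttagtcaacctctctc
Tet3 (chr6:83371822-83372022): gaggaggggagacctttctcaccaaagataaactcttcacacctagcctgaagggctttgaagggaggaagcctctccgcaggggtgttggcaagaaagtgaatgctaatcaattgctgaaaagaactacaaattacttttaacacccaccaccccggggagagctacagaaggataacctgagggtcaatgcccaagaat
Tet1 (chr10:62355682-62355882): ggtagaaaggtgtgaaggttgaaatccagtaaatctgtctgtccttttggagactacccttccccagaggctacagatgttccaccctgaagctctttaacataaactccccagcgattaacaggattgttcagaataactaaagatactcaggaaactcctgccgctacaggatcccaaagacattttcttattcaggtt
Dnmt3b (chr2:153468895-153469095): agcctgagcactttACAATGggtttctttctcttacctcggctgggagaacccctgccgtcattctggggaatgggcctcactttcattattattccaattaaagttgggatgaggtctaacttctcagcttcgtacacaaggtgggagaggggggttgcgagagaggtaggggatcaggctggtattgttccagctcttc
Tet2 (chr3:133195661-133195861): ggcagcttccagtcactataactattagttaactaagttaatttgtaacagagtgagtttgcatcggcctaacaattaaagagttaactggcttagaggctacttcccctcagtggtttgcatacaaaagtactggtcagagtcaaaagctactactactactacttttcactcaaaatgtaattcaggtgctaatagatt
Tdg (chr10:82115399-82115599): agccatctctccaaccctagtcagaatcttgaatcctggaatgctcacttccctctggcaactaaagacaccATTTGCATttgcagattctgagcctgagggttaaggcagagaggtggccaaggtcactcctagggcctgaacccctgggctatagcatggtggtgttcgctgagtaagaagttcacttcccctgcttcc
Dnmt3a (chr12:3890050-3890250): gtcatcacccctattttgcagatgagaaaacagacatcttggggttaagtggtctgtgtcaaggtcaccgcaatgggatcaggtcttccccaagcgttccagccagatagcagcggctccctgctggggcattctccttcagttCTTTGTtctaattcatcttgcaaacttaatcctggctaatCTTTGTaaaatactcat
Dnmt3l (chr10:77510984-77511184): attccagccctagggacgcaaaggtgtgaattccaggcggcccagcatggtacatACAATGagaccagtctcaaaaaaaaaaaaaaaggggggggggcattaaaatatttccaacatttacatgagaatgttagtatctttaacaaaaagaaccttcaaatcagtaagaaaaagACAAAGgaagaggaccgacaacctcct

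The tallest Oct4 summit was that of Uhrf2, 1.34 kb before the start. It held 107 reads (95% Poisson interval 87.7 to 129, which covers counting error only, as for all summit heights), above 97.9% of the WT Oct4 list. At the same site Sox2 had 35 reads in WT and 54 in KO, and Nanog 32 and 52. Heights from separate libraries were not compared as levels. Within their lists the Sox2 summit stood at percentile 78.9 in WT and 93.8 in KO, and the Nanog summit at percentile 81.4 in WT and 97.4 in KO.

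The site of Tet3 lay in an intron, 19.7 kb into the gene, outside any H3K4me3 domain in both genotypes. Oct4 had 103 reads there in WT (84.1 to 125). Sox2 had 65 in WT and 88 in KO, and Nanog 49 in WT and 55 in KO, each at percentile 94.6 or higher of its list. Thus a gene of the repressive class held 1 of the tallest sites of all 3 factors.

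At Tet1 the 5 Oct4 sites lay in introns from 0.842 to 14.8 kb after the start, inside the H3K4me3 domain of both genotypes. Their Oct4 heights were 44, 50, 44, 78 and 47 reads in order from the start. All 5 had a Sox2 summit in KO, of 36, 46, 30, 42 and 24 reads, whereas WT Sox2 was at the third (15 reads) and the fourth (27 reads). KO Nanog was at the first 4 sites, with 9, 22, 19 and 33 reads, and WT Nanog at the fourth, with 19 reads. The fourth, 6.06 kb into the gene, was thus the 1 site of Tet1 with all factors in WT.

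At Tet2 the Oct4 sites lay in introns 11.6, 19.5, 25.4 and 26.8 kb into the gene, with 69, 61, 36 and 31 reads. KO Nanog was at the first 3, with 18, 45 and 27 reads, and KO Sox2 at the second, with 22 reads. In WT, Nanog was at the second, with 36 reads, and Sox2 at the third, with 21 reads. A further Tet2 site at 10.1 kb had Sox2 (28 reads in WT, 35 in KO) and Nanog (16 and 16) in both genotypes and no Oct4 summit.

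At Dnmt3b the 3 Oct4 sites lay before the gene, at 9.92, 7.62 and 6.24 kb, with 40, 74 and 77 reads. KO Sox2 was at the first and the third with 15 and 37 reads, and KO Nanog at all 3 with 10, 13 and 30 reads. WT Nanog was already at the second and the third, with 32 and 23 reads. The site at 7.62 kb had Sox2 in WT only, with 31 reads.

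The 3 Oct4 sites of Dnmt3a clustered around the internal start that carried H3K4me3 in all lists, at 79.4, 84.1 and 85.4 kb, with 32, 34 and 21 reads. None had a KO summit within 100 bp, but KO Sox2 at 79.2 kb (28 reads) and KO Nanog at 79.1 kb (13 reads) lay near the first and KO Sox2 at 85.8 kb (15 reads) near the third. The site at 84.1 kb held Sox2 (14 reads) and Nanog (13 reads) in WT. The other 5 of the 7 KO Sox2 summits of Dnmt3a had 11 to 18 reads and lay 0.546 to 65.7 kb after the gene start. At Dnmt3l the Oct4 site, 6.37 kb into the gene, had 32 reads for Oct4 in WT and 32 for Sox2 in KO.

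The Oct4 site of Uhrf1 lay 13.6 kb before the start, near Plin3, with 23 reads (14.6 to 34.5), and had Sox2 in KO with 20 reads. That of Tdg lay 22.9 kb after its start, past the gene and inside its neighbour Glt8d2, with 40 reads and no other summit. Dnmt1 had Sox2 in KO only, 16 reads at 0.317 kb and 20 reads at 54.2 kb after the start, the second past the end of the gene.

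Counted by summit, 14 of the 20 WT Oct4 summits near these genes had a KO Sox2 or Nanog summit within 100 bp, where 51.9% of the 12898 WT Oct4 summits did. A KO Sox2 summit was within 100 bp of 12 (all, 46%) and a KO Nanog summit of 11 (32.4%). Of the 14, 7 had neither WT Sox2 nor WT Nanog within 100 bp. A KO Oct4 summit was within 100 bp of 0 of the 20, where 1.89% of the 12898 WT Oct4 summits had one, so 0 is near the background.

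KO Sox2 summits also lay at gene starts. Within 1 kb of the start, a distance chosen after the sites were seen, they were at Uhrf1, Dnmt1, Dnmt3a, Tet1, Tet3 and Tdg, 6 of 10 genes where 24.5% of all genes had one. These 6 summits had 23, 16, 18, 36, 23 and 13 reads. No WT Sox2 summit lay within 1 kb of any of the 10 starts, where 3.94% of all genes had one. The WT Sox2 list held 5190 summits and the KO list 20755.

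**Figure D5:**
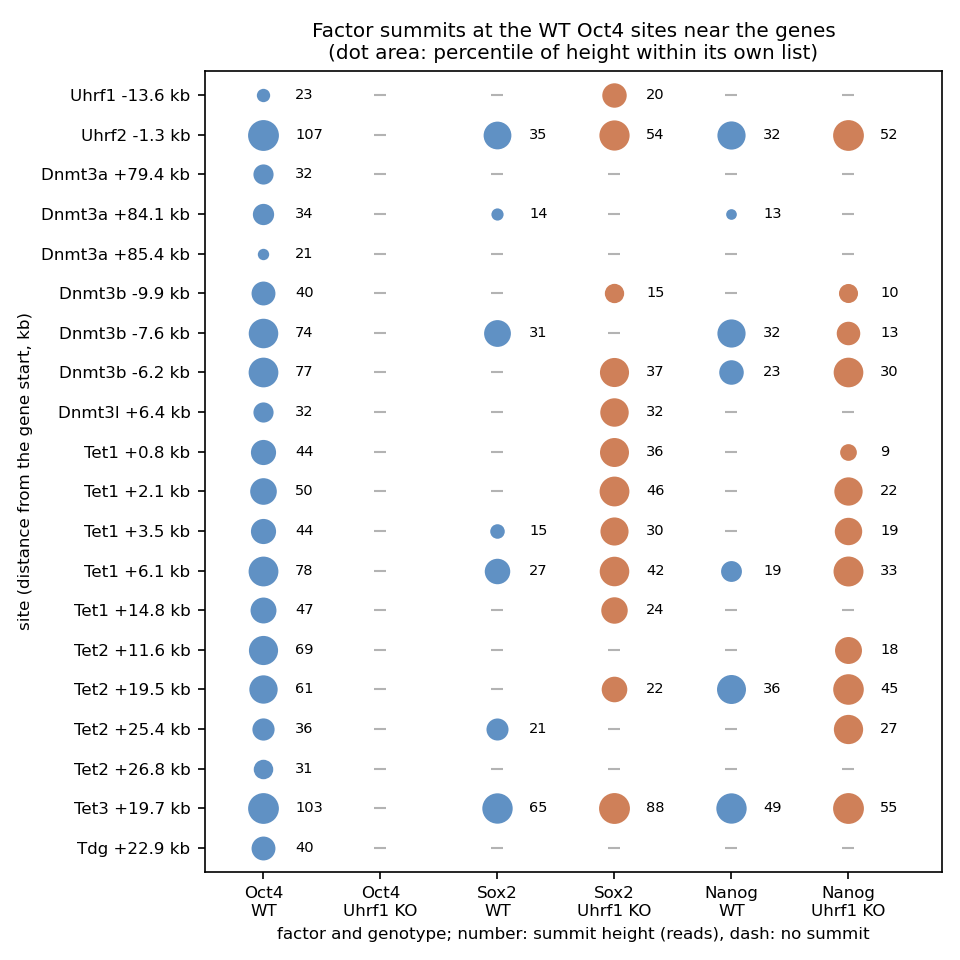
The 20 WT Oct4 sites near the genes (rows, with distance from the gene start in kb) in the 6 factor lists (columns). Numbers are summit heights in reads, dot area is the percentile of the height within its own list, blue is WT, orange is Uhrf1 KO, and a dash marks no summit. The KO Oct4 column is empty, and the rows of Uhrf2 and Tet3 hold Sox2 and Nanog in both genotypes.

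Sites with Sox2 or Nanog in both genotypes, beside those of Uhrf2, Tet3, Tet1 and Dnmt3b already shown, are given next as the 201 bases around the WT Nanog or Sox2 summit, for the 4 tallest in WT.
Tet2, 19.5 kb, Nanog (chr3:133187765-133187965): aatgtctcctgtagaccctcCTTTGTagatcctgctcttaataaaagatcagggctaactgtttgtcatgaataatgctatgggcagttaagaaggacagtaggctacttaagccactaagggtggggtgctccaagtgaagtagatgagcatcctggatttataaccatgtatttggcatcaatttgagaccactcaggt
Dnmt3b, 7.62 kb before the start, Nanog (chr2:153467438-153467638): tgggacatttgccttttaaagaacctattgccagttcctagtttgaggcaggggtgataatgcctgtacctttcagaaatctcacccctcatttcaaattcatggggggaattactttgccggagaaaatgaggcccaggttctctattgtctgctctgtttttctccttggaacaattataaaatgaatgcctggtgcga
Tet2, 10.1 kb, Sox2 (chr3:133197141-133197341): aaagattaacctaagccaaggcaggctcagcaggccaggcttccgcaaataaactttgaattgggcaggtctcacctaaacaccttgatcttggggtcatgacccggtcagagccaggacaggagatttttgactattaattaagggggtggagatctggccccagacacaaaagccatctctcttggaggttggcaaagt
Tet1, 3.45 kb, Sox2 (chr10:62358242-62358442): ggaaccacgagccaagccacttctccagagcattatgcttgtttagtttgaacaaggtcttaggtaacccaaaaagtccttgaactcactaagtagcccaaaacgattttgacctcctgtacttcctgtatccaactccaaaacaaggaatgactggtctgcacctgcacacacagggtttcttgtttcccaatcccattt

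Exact matches to the motifs were few. The octamer ATGCAAAT was within 100 bp of 1 of the 20 Oct4 summits, that of Tdg, where 10.2% of the WT Oct4 summits on assembled chromosomes held it. The Oct4-Sox2 core TTGTNATGC was at 0 of 20 (5.68%) and CCATTA at 0 of 20 (6.87%). CATTGT was at 3, those of Uhrf1, Dnmt3l and the tallest of Dnmt3b (13.4%), and ACAAAG at 4 (25.7%). The tallest summits, those of Uhrf2, Tet3 and Tet1, held none of the 5 motifs as spelled here, which says only that these letters were not in the window.

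A further 25 genes of DNA methylation covered methyl-CpG readers, partners of maintenance, base excision and deamination, protection of methylation and the methyl donor cycle. Of these 25, 24 carried H3K4me3 in WT mESC (all genes, 63.2%) and 24 in KO mESC (57%). The gene without it was Zbtb38, a methyl-CpG reader, in both. At weeks 1, 2 and 3 H3K4me3 was at 23, 24 and 24 genes in WT (62.1%, 65.7% and 66.2%) and 22, 24 and 25 in KO (57%, 64.5% and 65.8%). Dppa3, which protects maternal methylation in the early embryo, had it in WT only at week 1 and in KO only at week 3. H3K27me3 was at 4 genes in WT mESC (34.9%) and 2 in KO mESC (7.57%), and H3K9me3 at 3 (29.7%) and 12 (40.1%). Oct4 summits were near 18 of the 25 genes in WT (30.1%) and 2 in KO (1.1%). Those 2 were Usp7, a deubiquitinase that binds Uhrf1 and Dnmt1, and Smug1, a uracil glycosylase, and both also had Oct4 in WT. Sox2 summits were near 7 in WT (18.8%) and 23 in KO (57.7%), Nanog summits near 5 (7.51%) and 14 (27.4%), and Uhrf1 windows on 0 (9.84%).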

How the data were processed

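ChIP-seq lists of 25 libraries were analysed and 8 input samples were not used here. Per the submitters' notes and the study's methods, the authors mapped reads to mm9 with Bowtie2 2.1.0 and called histone domains with RSEG and factor summits with MACS, with a separate list for every library. Histone domains were deposited with a signal (reads per bin, averaged over the domain) and with a score, which is higher for domains of more bins. For each summit the deposited value is a whole-number count of reads at the summit. Uhrf1 regions were deposited as 10 kb windows with no score. Read totals were not used here, so the depth per library is unknown, and heights and signals were ranked within their own list only.

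Regions were matched to 22367 protein-coding genes of GENCODE on NCBIM37 (mm9) with Python 3.11 and numpy 2.4.6, and Poisson 95% intervals were made with scipy 1.17.1. Classes were active (H3K4me3 only), bivalent (both marks), repressive (H3K27me3 only) and unmarked. Sequences were read from the mm9 genome. The overlap calls were tested on simulated data. The genes, the lists of other genes and the rules were chosen with earlier results of these data known. Of the other methylation genes, those named differed in H3K4me3 between WT and KO, lacked it in WT mESC, or had Oct4 in both genotypes. 1 gene of that list is not reported here. Sites were named by height, and genes with an identical pattern were named when there were 1 to 3 of them. With 1 library per group no p-value is given. Alternatives varied the windows, the starts, and the score or height required.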

Additional observations from a re-analysis of the deposited data

Results flagged for a closer look

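The difference between genotypes pointed in opposite directions at different stages for both promoter marks, and this difference was not tested, since each group held 1 library. The number of the 10 genes with H3K4me3 in Uhrf1 KO minus that in WT was 1 in mESC (Dnmt3l, in KO only with 1.38% of all genes), -1 at week 1 (Dnmt3a, in WT only with 6.23%) and -1 at week 3 (Dnmt3a, in WT only with 2.47%). The number with H3K27me3 in Uhrf1 KO minus that in WT was -1 in mESC (Uhrf2, in WT only with 29.5% of all genes), 2 at week 1 (Dnmt3a and Dnmt3l, in KO only with 6.29%) and -2 at week 3 (Uhrf2 and Dnmt3b, in WT only with 16.6%). For H3K27me3 the share of all genes moved in the same direction at these stages, from 34.9% in WT to 7.57% in KO in mESC, 20.5% to 21.1% at week 1 and 33.2% to 19.5% at week 3, so the 1 gene in mESC and the 2 at week 3 are near or below the background. Dnmt3a at week 1 was the 1 case among the 10 genes that lacked H3K4me3 and carried H3K27me3 in KO, with the reverse in WT. No share of all genes is given for this joint order. The WT H3K4me3 domain over the start stood at percentile 8.16 of mean count in its list. The KO H3K27me3 domain stood at percentile 46.3 of score in its list. With any transcript start counted, Dnmt3a was bivalent in KO.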

How the results depend on the processing

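Of 266 counts of the 10 genes under the alternatives, 219 stayed within 1.5 times the count reported and 47 did not. Counts of 0 that stayed at 0 are among the 219, so that number overstates how stable the other counts were. The cause of a move was not tested unless the alternative itself removes regions. H3K4me3 counts per list stayed within 1.5 times in all alternatives run, whereas differences between WT and KO rest on 1 or 2 genes each. Shares of all genes under the same alternative are given in brackets. With 500 bp either side, KO-only H3K4me3 was at 0 genes in mESC (1.34%). WT-only H3K4me3 was then at 2 at week 1 (Uhrf2, Dnmt3a; 7.95%) and KO-only at 2 at week 2 (Dnmt3a, Tet1; 2.38%). With 5 kb, WT-only H3K4me3 at week 3 was at 0 (2.47%). With any transcript start, the H3K4me3 differences were at 0 genes: KO-only in mESC (1.24%), WT-only at week 1 (6.13%) and WT-only at week 3 (2.38%). Bivalent genes in KO at week 1 then numbered 1 (Dnmt3a; 12.4%). For H3K27me3 at week 3, the start itself gave 0 genes in WT (27%), 0 in KO (17.1%) and 0 in WT only (12.8%). A window of 2 kb also gave 0 in WT (30%), 0 in KO (18.3%) and 0 in WT only (14.7%). With 10 kb, 1 gene (Dnmt3l; 23.7%) had H3K27me3 in WT at week 1 and 1 (Dnmt3a; 7.22%) in KO only. With domains at or above the median score, KO H3K27me3 at week 1 was at 1 gene (Dnmt3l; 15.3%), also the 1 in KO only (5.41%). At week 3 H3K27me3 was then at 0 genes in WT (23.8%), 0 in KO (13.9%) and 0 in WT only (12.7%), with 0 bivalent in WT (9.47%) or KO (5.72%). WT-only H3K4me3 was then at 1 gene in mESC (Uhrf2; 11.2%), 0 at week 1 (6.97%), 1 at week 2 (Dnmt3a; 5.16%) and 0 at week 3 (2.75%). KO-only H3K4me3 was at 1 at week 2 (Dnmt3l; 2.09%).

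Over the gene body, WT H3K9me3 was at 2 genes (Uhrf2, Tet3; 34.7% of all genes), with 1 in WT only (Tet3; 8.66%). Uhrf1 windows within 20 kb were at 2 genes (Uhrf2, Tet2; 18.1%). With lists of equal number, WT Oct4 and WT-only Oct4 were at 2 genes (Uhrf2, Tet3), where 2.24% and 1.65% of all genes had them. KO-only Sox2 was then at 2 (Uhrf1, Dnmt3l; 6.59%), KO Nanog at 5 (8.48%), WT-only Nanog at 2 (Uhrf1, Dnmt3a; 2.12%) and KO-only Nanog at 0 (3.08%). Summits at or above the median height left WT Nanog at 4 genes (4.36%) and KO-only Nanog at 2 (Dnmt3a, Tet1; 13.7%). KO-only Nanog was at 2 genes both within 5 kb (Uhrf1, Dnmt3l; 12.7%) and within 50 kb (Dnmt1, Dnmt3l; 30.3%). Within 1 kb of the start, chosen after the data were seen, WT Oct4 (3.65%) and WT-only Oct4 (3.61%) were at 1 gene (Tet1). WT Sox2 was then at 0 (3.94%), KO Sox2 at 6 (24.5%), WT Nanog at 0 (0.317%) and KO Nanog at 1 (Tet1; 1.41%). No paired analysis was possible because each group holds 1 library and no result comes from a test.

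The lists hold regions past the callers' thresholds, so an absent region is one not called at a depth not known here. The KO mESC H3K27me3 list and the KO Oct4 list are short, and every WT and KO difference sets 1 library of 1 cell line against another.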

Other observations

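A noncoding transcript start of Tet1, 33.8 kb into the gene, had an H3K4me3 domain within 500 bp in all 8 lists, including both week 1 lists in which the Tet1 gene start had none. Of the 52 factor sites near the 10 genes, 28 held KO summits only and 5 held all 3 factors in WT. No share of all factor sites is given for these counts, and the KO Sox2 and Nanog lists were longer than those of WT. The presence and absence of regions in the 25 lists was the same as that of Dnmt1 in 1373 genes, of Tet2 in 143, of Tdg in 122, of Uhrf1 in 39, of Tet1 in 6 and of Dnmt3b in 4. No other gene shared the full pattern of Uhrf2, Dnmt3a or Tet3.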
